A study of Mus musculus with 72 samples.

Results

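Fasting was compared with feeding in the hypothalamus of wild-type mice of the E3 line, 1 of 5 mouse lines in which a conserved noncoding element had been knocked out. The comparison holds 6 of the 72 libraries of the series: 3 from fed mice and 3 from mice that had gone 72 h without food while water was given. All 6 came from adult B6 mice that carried the wild-type E3 sequence, and the labels give no sex and no exact age. Total RNA of the whole hypothalamus was sequenced, so a lower level can mean fewer cells of a type or less RNA per cell, and these cannot be told apart. The batch labels of the 6 libraries start with 1 shared number. Whether libraries of a group came from separate mice is not stated, so p-values measure only the spread between these libraries. Beside them stand 7 libraries of fed and fasted E1 wild types (4 and 3), and 6 of fed and fasted E3 knockouts (3 and 3), which lack the E3 element in both feeding states.

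The hypothalamus reads the body's fuel state and sets appetite, hormone release and body temperature. In its arcuate nucleus, neurons that make Npy and Agrp drive feeding and neurons that make Pomc and Cartpt restrain it, while neurons of the lateral hypothalamus make Pmch and Hcrt. A long fast also raises adrenal glucocorticoids, which act on neurons, glia and vessels through a receptor that binds DNA.

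Of 14534 genes tested, 1666 (11.5%) were higher and 1225 (8.43%) were lower in the fasted mice, 2891 (19.9%) in all, by edgeR's quasi-likelihood test at a Benjamini-Hochberg adjusted p under 0.05. The hunger peptides Npy and Pmch rose 2.82-fold and 3.19-fold. Genes that glucocorticoids induce, ribosomal proteins, subunits of the respiratory chain and chaperones of the cytosol and the endoplasmic reticulum rose in large shares of their lists. Genes of endothelial cells, pericytes and myelin fell in large shares of theirs. The count was 902 without fed library 3, 1029 without fed library 2, 1543 without fasted library 1 and 1791 without fasted library 3, and 798 of the 2891 genes were called in all 6 fits that leave out 1 library. Levels below are CPM, counts scaled to library size with the normalization factors of the fit, differences are log2 of fasted over fed, and SD or SE is over n = 3 libraries a group. Marker sums, the levels in the next paragraph and those of Ddx3y are CPM of the library total, without these factors.

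Depth was 14911351 to 19881350 counts per library. The first principal component, with 48.9% of the variance, separated the fed from the fasted libraries, and the second, with 26.7%, set fasted library 2 apart from the other 5. That library also held the highest sums of cortical and hippocampal markers (1970 CPM against 1075 to 1185 in the other 5) and of fibroblast markers (428 against 157 to 239), and the lowest of thalamic markers (1874 against 2662 to 3711). Fasted library 1 held the highest sum of choroid plexus markers, 871 CPM against 331 to 389.6, a sum that includes Ttr, whose values are given below. The defining hypothalamic markers were present in all 6 libraries, and the summed markers of hypothalamic identity were 255 to 298 CPM fed and 303 to 388 CPM fasted. That sum includes Pmch, the 1 called gene of the 25 on the list. Pmch was at 18.2 to 27.7 CPM fed and 59.1 to 81.5 CPM fasted, so the higher fasted sums are no measure of tissue content alone. Anterior pituitary and liver were near absent: Gh reached at most 0.108 CPM, Prl 0.0503 and Alb 0.335.

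The fasted libraries differed from the fed ones in the base composition and length of the transcripts counted, and this moved with many of the results below. Genes that rose had a median G and C content of 43.6% and a median transcript length of 2836 bases. Genes that fell had medians of 54.1% and 4698 bases, and genes in neither class had 49.7% and 3399 bases. In the 10% of genes poorest in G and C, 36.3% were called higher and 0.482% lower, whereas in the richest 10% of genes 2.55% were higher and 18.0% lower. In the 10% of genes of shortest transcript 24.4% were called higher and 1.45% lower. Relative to the fed mean, the level of GC-rich minus GC-poor genes was 0.10, -0.07 and -0.04 (log2) in fed libraries 1 to 3 and -0.73, -0.24 and -0.60 in fasted libraries 1 to 3, so all 3 fasted libraries lay below all 3 fed ones. The long minus short difference was -0.14, 0.07 and 0.08 fed and -0.32, -0.37 and -0.37 fasted. With each library's trend on both properties taken out, 1046 genes were called. This alternative was chosen after seeing the data, and its counts are given with the gene lists below.

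**Figure D1:**
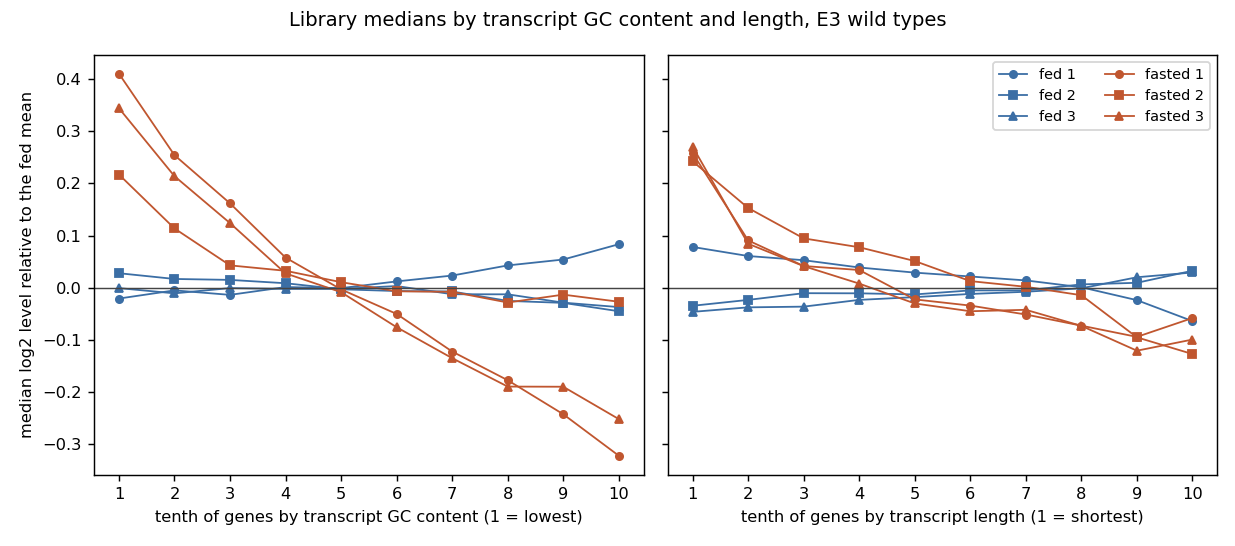
Median level of the genes in each of 10 equal bins of transcript GC content (left) and length (right), per library, on a log2 scale relative to the mean of the 3 fed libraries. The fasted libraries lie above the fed ones at low GC content and short length, and fasted libraries 1 and 3 lie 0.32 and 0.25 below the fed mean in the richest bin.

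The signals of hunger were split. Npy, the peptide of arcuate neurons that start feeding (chromosome 6, 49822710 to 49829507, mm10), stood at 9.36, 8.79 and 7.28 scaled CPM in fed libraries 1 to 3 and at 29.1, 26.7 and 16.2 in fasted libraries 1 to 3. All 3 fasted libraries lay above all 3 fed ones, and the groups were without overlap, in either direction, in 38.9% of all genes tested. The log2 difference was 1.5 (SE 0.22, edgeR quasi-likelihood with Benjamini-Hochberg adjusted p = 0.00329). Pmch, the precursor of melanin-concentrating hormone, which promotes feeding and sleep (chromosome 10, 88091072 to 88092375), was at 21.1, 27.6 and 18.4 fed and 72.0, 58.0 and 83.6 fasted. These groups did not overlap either, with a log2 difference of 1.67 (SE 0.18, adjusted p = 0.00162). Agrp, made by the same arcuate neurons as Npy, did not pass the test. It was at 5.40, 7.17 and 5.62 fed and 5.17, 3.25 and 5.89 fasted, with overlapping groups, a log2 difference of -0.35 (SE 0.26) and an adjusted p of 0.372. When the length trend alone was taken out it was called lower (-0.82, edgeR adjusted p = 0.0491), and with both trends taken out it was not (-0.72, adjusted p = 0.122). Hcrt, the orexin precursor that keeps animals awake and foraging, overlapped as well, at 19.3 ± 4.43 fed and 23.2 ± 5.48 fasted (SD, n = 3; log2 0.27, SE 0.20, edgeR adjusted p = 0.375). Its estimate was below 0 with the length trend taken out. Of the 8 hunger peptides tested, Npy and Pmch were thus called, 0 fell, and the same count of 2 was called with GC and length trends taken out.

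Among peptides that restrain feeding, calls were in the higher direction. Of 12 such peptides tested, 6 rose and 0 fell, with a median of 0.76 against 0.02 for all genes. Cartpt, the satiety peptide that arcuate neurons make beside Pomc, was at 13.8, 13.9 and 10.8 fed and 16.2, 37.0 and 22.8 fasted. Its groups did not overlap, fasted library 2 was the highest, and the log2 difference was 0.99 (SE 0.26, edgeR adjusted p = 0.0295). Nts, a peptide that lowers food intake, rose by 1.34 (SE 0.27, edgeR adjusted p = 0.00987), from 11.9 ± 1.96 to 30.4 ± 11.3 scaled CPM (SD, n = 3). Bdnf, a growth factor that restrains feeding, rose by 0.56 (SE 0.15, adjusted p = 0.0317). Pomc, the precursor of the satiety peptide alpha-MSH, was at 4.92, 6.31 and 5.88 fed and 2.80, 5.12 and 4.58 fasted. Its groups overlapped, and its difference of -0.45 (SE 0.26) did not pass the test at an edgeR adjusted p of 0.251. These calls were fragile: 0 of the 12 were called without fed library 3, 2 without each of fed libraries 1 and 2 and fasted library 3, and 0 with GC and length trends taken out.

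Among the other hypothalamic peptides 5 of 14 rose and 0 fell (median 0.69). Sst, somatostatin, which holds back growth hormone release (chromosome 16, 23889573 to 23890958), was at 46.9, 44.4 and 44.5 fed and 85.3, 114 and 87.2 fasted. The fasted libraries were about alike and lay clear of the fed ones (log2 1.08, SE 0.13, edgeR adjusted p = 0.00193). Ghrh, the hormone that drives growth hormone release, moved in the same direction, from 2.10, 2.0 and 3.07 fed to 3.84, 6.20 and 4.77 fasted (log2 1.05, SE 0.28, edgeR adjusted p = 0.0305). Vip, a peptide of the circadian pacemaker, rose by 1.44 (SE 0.35, adjusted p = 0.0219), and Crhbp, which binds corticotropin-releasing hormone, by 1.32 (SE 0.41, adjusted p = 0.0489). Crhbp stood at 5.24, 14 and 4.46 in the fasted libraries, so 1 library carried most of its rise. The stress hormone Crh (log2 1.11, SE 0.42, edgeR adjusted p = 0.0913), the water-retention hormone Avp (0.68, SE 0.27, adjusted p = 0.107) and Oxt (0.28, SE 0.31, adjusted p = 0.56) did not pass the test. Avp was called with the GC trend taken out (0.93, edgeR adjusted p = 0.0315) and by DESeq2 (adjusted p = 0.0405), and stood at 0.15 with the length trend taken out. Of the 14, 1 was called with GC and length trends taken out. Without fed library 1 or fed library 3 the count was also 1, without fed library 2 it was 2, and without fasted library 2 or 3 it was 3.

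**Figure D2:**
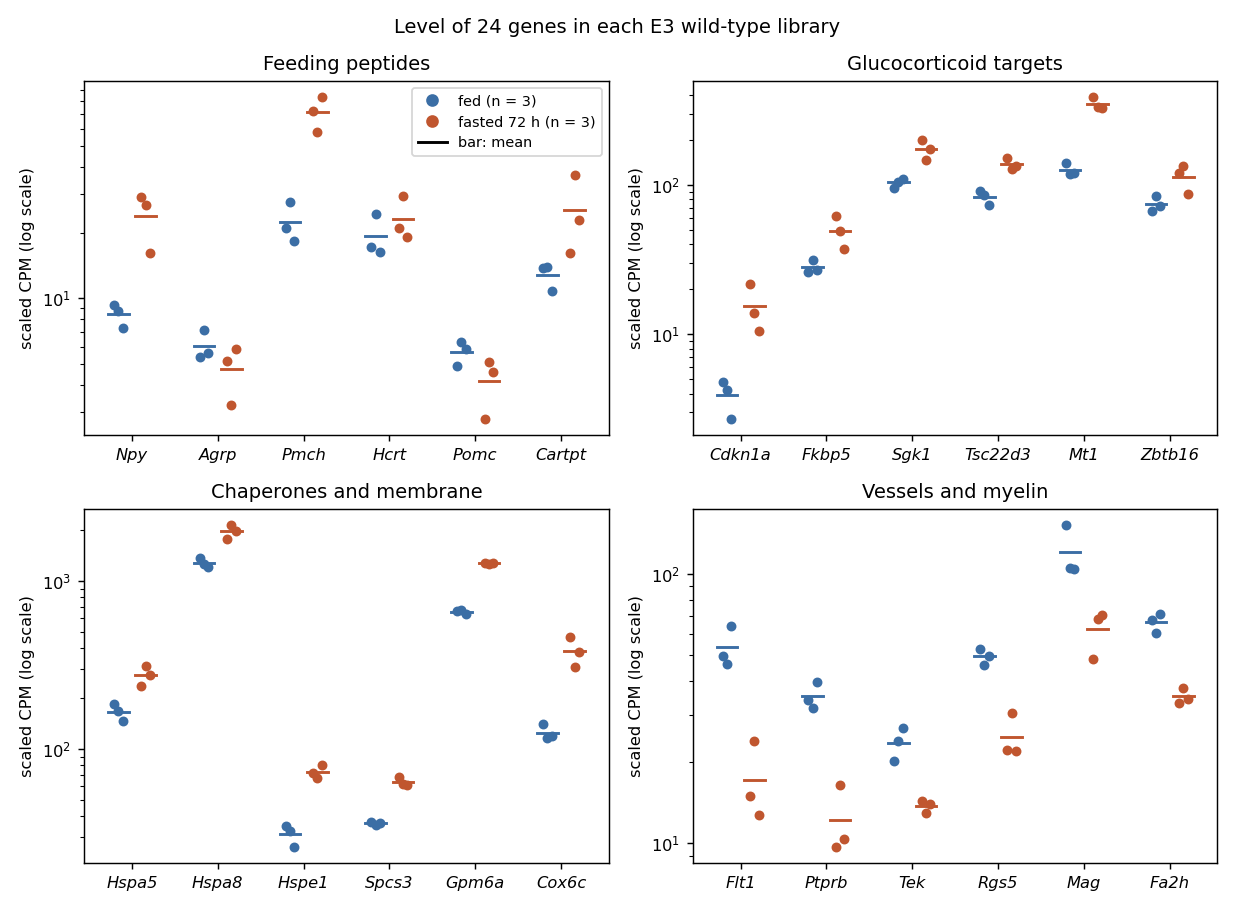
Levels of 24 genes in each of the 6 libraries, in scaled CPM on a log axis, with fed and fasted libraries as points and the group mean as a bar. Npy, Pmch, Cdkn1a and Cox6c show fasted points above all fed points, Flt1 and Ptprb show them below, and Agrp, Pomc and Hcrt overlap.

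Receptors were mixed. Of 22 receptors and signalling genes of feeding, 3 rose and 2 fell (median 0.29), near the shares of all genes, 11.5% and 8.43%. Npy2r, the receptor by which Npy neurons silence themselves, was at 10.8, 12.6 and 14.8 fed and 24.3, 26.4 and 23.3 fasted (log2 0.95, SE 0.14, edgeR adjusted p = 0.0034). Npy1r, which receives Npy on target neurons, rose by 0.61 (SE 0.12, adjusted p = 0.00979), and Cnr1, the cannabinoid receptor, by 0.75 (SE 0.15, adjusted p = 0.00892). Igf1r and Irs1, a growth factor receptor and the adaptor of insulin signalling, fell by 0.58 and 0.33 on the log2 scale (edgeR adjusted p = 0.0121 and 0.0367). The receptors for leptin, ghrelin, insulin and melanocortins on the list (Lepr, Ghsr, Insr, Mc3r and Mc4r, picked from it for their roles) were not called. Both falls were lost without fed library 2 or 3 and with GC and length trends taken out, where Npy2r and Cnr1 were still called (2 higher, 0 lower).

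In the thyroid axis 5 of 12 genes rose and 0 fell (median 0.40). Trh, the releasing hormone at its head, was at 16.5, 23.7 and 19.6 fed and 33.8, 31.6 and 28.9 fasted (log2 0.66, SE 0.14, edgeR adjusted p = 0.0137). Its receptor Trhr rose by 1.30 (SE 0.26, adjusted p = 0.00954). Klf9, which thyroid hormone and glucocorticoids both induce, rose from 115 ± 5.64 to 153 ± 14.3 scaled CPM (SD, n = 3; log2 0.42, edgeR adjusted p = 0.022). Without fed library 3, 0 of the 12 were called, without fed library 2 or fasted library 1 the count was 2, and it was also 2 with GC and length trends taken out. Those last 2 were Klf9 and Ttr, the thyroid hormone carrier taken up below (edgeR adjusted p = 0.0269 and 0.044). Trh and Trhr were not called with both trends taken out (edgeR adjusted p = 0.0937 and 0.0689). In the growth and reproductive axis 3 of 15 rose, namely Sst, Ghrh and Gpr50, an orphan receptor of tanycytes (log2 0.98, SE 0.21, edgeR adjusted p = 0.0129), and Igf1r fell. The count of higher genes in that list was 1 without fed library 3, and with GC and length trends taken out 2 were higher and 0 lower.

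Of 23 glucocorticoid-induced genes tested, 14 rose and 0 fell, with a median of 0.62, or 1.53-fold. Cdkn1a, a brake on the cell cycle (chromosome 17, 29090976 to 29100727), was at 4.78, 4.21 and 2.70 fed and 21.8, 13.8 and 10.5 fasted. Every fasted library was above every fed one (log2 1.97, SE 0.30, edgeR adjusted p = 0.00391). Fkbp5, a co-chaperone that dampens the glucocorticoid receptor, was at 26.1, 31.4 and 27.0 fed and 61.5, 49.4 and 37.5 fasted (log2 0.81, SE 0.17, adjusted p = 0.0119). Sgk1, a kinase that controls ion channels and transporters, was at 96.0, 105 and 110.2 fed and 198.55, 147 and 173.02 fasted (log2 0.74, SE 0.12, edgeR adjusted p = 0.00572). Tsc22d3, the anti-inflammatory protein GILZ, rose by 0.72 (SE 0.11, adjusted p = 0.00427), and Zbtb16, a transcription factor, by 0.62 (SE 0.16, adjusted p = 0.0252). Mt1, a metal-binding protein that glucocorticoids and zinc induce, had the smallest p of the list, with 141, 119 and 121 fed and 387, 330.4 and 326 fasted (log2 1.46, SE 0.12, edgeR adjusted p = 0.00155). Of the 5 metallothionein and zinc transport genes tested, Mt1, Mt3 (log2 1.01) and the zinc importer Slc39a10 (0.51) rose, and the importer Slc39a14 fell by 0.59, a fall that was not called after GC and length trends were taken out (3 higher, 0 lower). With GC and length trends taken out 11 of the 23 glucocorticoid targets were called, all higher. Without fed library 3 the count was 6, and without fed library 2 or fasted library 1 it was 8.

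The stretches before the start of these genes were searched for the full glucocorticoid response element, AGAACA and TGTTCT with any 3 bases between them, on both strands, in the 250 bases before each RefSeq start (GRCm38.p6). Of 32851 such stretches 3 (0.00913%) held it. Among the 11322 tested genes with a stretch, Sgk1 was the 1 gene that did (0.00883%), in 1 of its 6 stretches, at chr10:21993640-21993889 on the plus strand. It is printed because its gene rose, with the matching letters in capitals.
Sgk1: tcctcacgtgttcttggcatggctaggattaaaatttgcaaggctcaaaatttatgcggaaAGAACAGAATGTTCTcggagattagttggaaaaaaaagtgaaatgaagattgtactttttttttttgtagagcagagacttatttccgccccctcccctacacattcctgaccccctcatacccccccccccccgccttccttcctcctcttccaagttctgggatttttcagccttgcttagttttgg
The match begins 189 bases before the start. The shorter site AGAACA, which lies inside the full element, was in 3 of the 21 target genes with a stretch, near the 13.3% of all tested genes.

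Of 26 genes of fat and ketone use, 3 rose and 0 fell (median 0.17), the same share as among all genes. Angptl4, a fasting-induced inhibitor of lipoprotein lipase, rose by 1.02 (SE 0.26, edgeR adjusted p = 0.0249), and Acadm, an enzyme of fatty acid oxidation, by 0.37 (SE 0.11, adjusted p = 0.0484). Pdk4, which spares glucose by blocking pyruvate oxidation, had a difference of 0.60 (SE 0.19) that did not pass the test (edgeR adjusted p = 0.053). Among 15 genes of fatty acid synthesis, the elongase Elovl6 (log2 -0.47) and the regulator Srebf1 (-0.48) fell and 0 rose. Glycolysis (2 of 25 higher, 2 lower), cholesterol synthesis (2 of 23 higher, 1 lower) and the amino acid stress genes of ATF4 (1 of 21 higher, 0 lower) were called in a smaller share than all genes, at 19.9%. Autophagy and FoxO targets (2 of 21 higher, 2 lower) were called in a share near that of all genes. After GC and length trends were taken out the counts were 0 higher and 1 lower for fatty acid synthesis, 2 and 0 for glycolysis, 0 and 1 for cholesterol synthesis, 1 and 2 for autophagy and 1 and 0 for ATF4. Tfeb, the regulator of lysosome genes, was at 22.7, 22.2 and 23.9 fed and 11.5, 11.9 and 10.6 fasted (log2 -1.02, SE 0.12, edgeR adjusted p = 0.00186). Without fasted library 1 the fat and ketone count was 1, as it was without any 1 of the fed libraries, and with GC and length trends taken out it was 3. Acadm was not among those 3 (log2 0.23, edgeR adjusted p = 0.207), and was called in 1 of the 6 fits that leave out 1 library.

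Of 73 cytosolic ribosomal protein genes tested, 66 rose and 0 fell, and all 73 estimates were above 0 (median 0.79, or 1.73-fold). Rpl36a, a protein of the large subunit, was at 22.5, 21.8 and 24.2 fed and 58.6, 47.1 and 52.7 fasted (log2 1.21, SE 0.11, edgeR adjusted p = 0.00155). Rps26, of the small subunit, was at 76.3, 66.2 and 63.4 fed and 146, 141 and 148 fasted (log2 1.08, SE 0.10, adjusted p = 0.00155). In both genes the fasted libraries lay close together and above every fed one. Ribosomal protein genes have many near-identical copies in the genome, and how the counting shared such reads is not given in the sources used here. After GC and length trends were taken out, 44 were called (0 lower) and the median was 0.47. Leaving out any 1 library left 48 to 67 calls.

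Of 72 nuclear genes of the respiratory chain, 46 rose and 0 fell (median 0.58, 1.49-fold). Cox6c, a subunit of cytochrome c oxidase (chromosome 15, 35925886 to 35938246), was at 141, 116 and 119 fed and 462, 307 and 377 fasted (log2 1.61, SE 0.16, edgeR adjusted p = 0.00155). Uqcrb, of complex III, was at 57.4, 45.0 and 41.8 fed and 148, 105 and 140.4 fasted (log2 1.45, SE 0.16, adjusted p = 0.00171). Usmg5, a small subunit of ATP synthase outside the list, rose by 1.66 (SE 0.17, edgeR adjusted p = 0.00155). All of these fasted values lay above the fed ones. Of the 72, 18 were called with GC and length trends taken out (median 0.23). The count was 25 without fed library 3 and 27 without fed library 2. Mitochondrial genes are listed at 0 in these tables, so the subunits encoded in mitochondria were not measured.

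**Figure D3:**
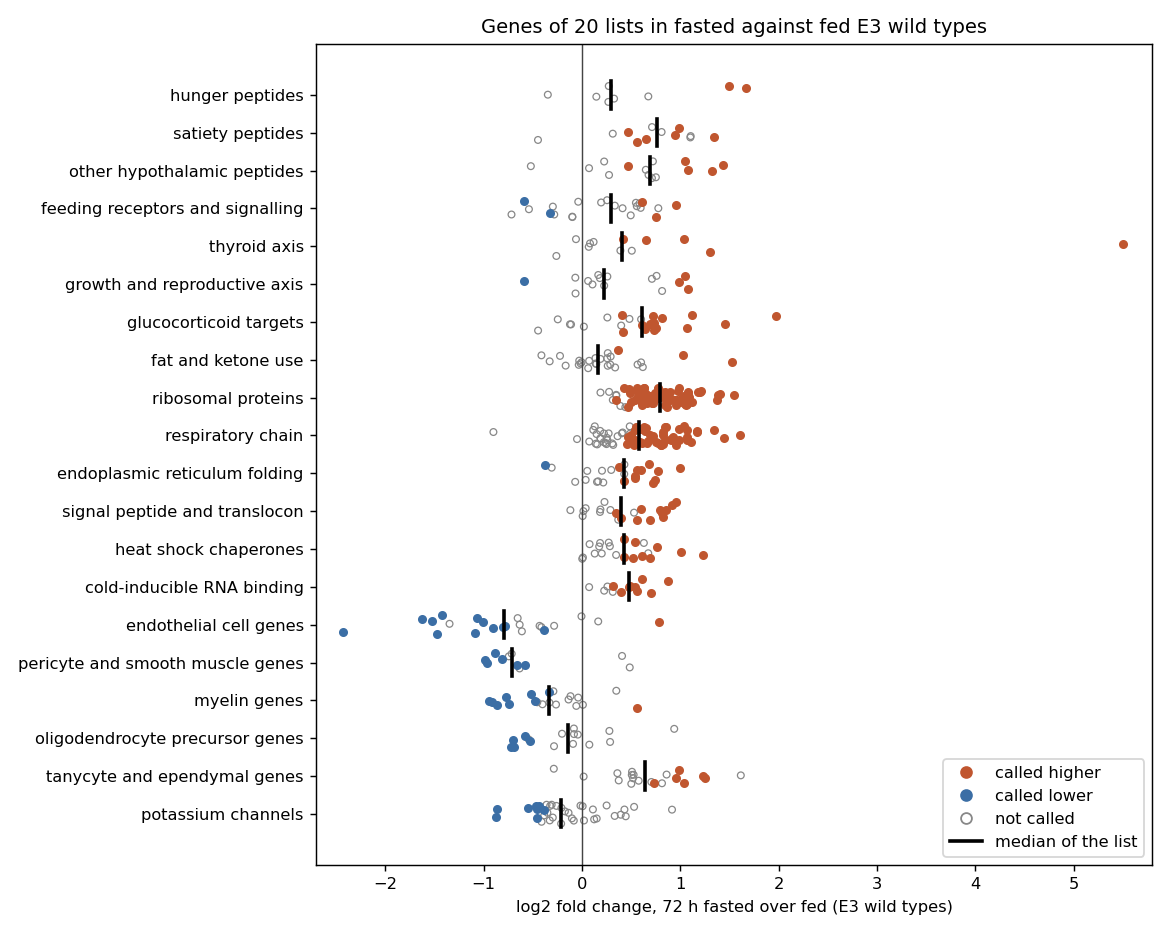
Log2 difference, fasted over fed, of each member of 20 gene lists (1 point a gene, filled where called, bar at the list's median). Ribosomal proteins, the respiratory chain and glucocorticoid targets lie to the right of 0 with medians of 0.79, 0.58 and 0.62, and endothelial genes lie to the left with a median of -0.79.

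Chaperones rose in both compartments. Of 21 heat shock chaperones of the cytosol and mitochondria, 9 rose and 0 fell, and all 21 estimates were above 0 (median 0.43). Hspe1, the mitochondrial co-chaperone HSP10, was at 34.7, 32.7 and 26.2 fed and 72.1, 67.4 and 80.0 fasted (log2 1.23, SE 0.13, edgeR adjusted p = 0.00162). Hspa8, the constitutive HSC70, was at 1376, 1268 and 1216 fed and 1772, 2158 and 1979 fasted (log2 0.62, SE 0.13, adjusted p = 0.0132). Hsp90aa1, the inducible HSP90, rose by 0.76 (SE 0.15, edgeR adjusted p = 0.0088), and the classic inducible pair Hspa1a and Hspa1b, picked for this role from the list, was not called. With GC and length trends taken out 6 were called, without each of fed libraries 2 and 3 the count was 3, and without fasted library 3 it was 6.

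The heat shock element was searched as 3 alternating units of GAA and TTC, each 2 bases from the next, starting with either unit, on both strands of the same stretches, where 0.466% held it. Of 17 chaperone genes with a stretch 2 held it, Hspe1 and its neighbour Hspd1, whose stretches lie on opposite strands and overlap, so they share the letters. Hspe1 is shown at chr1:55087898-55088147 on the plus strand because both of its genes rose. Its 2 overlapping matches are in capitals.
Hspe1: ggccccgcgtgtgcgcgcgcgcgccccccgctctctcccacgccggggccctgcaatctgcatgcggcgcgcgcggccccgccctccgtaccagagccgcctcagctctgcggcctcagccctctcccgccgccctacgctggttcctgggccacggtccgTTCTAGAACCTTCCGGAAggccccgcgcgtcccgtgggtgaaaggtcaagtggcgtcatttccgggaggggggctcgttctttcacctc

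In the endoplasmic reticulum, where secreted proteins and peptide hormones fold, 11 of 24 folding and stress genes rose and 1 fell (median 0.43). Hspa5, the chaperone BiP (chromosome 2, 34771970 to 34777547), was at 185, 169 and 146 fed and 238, 313 and 277 fasted (log2 0.73, SE 0.13, edgeR adjusted p = 0.00728). Hsp90b1, the reticulum's HSP90, was at 135, 135 and 116 fed and 180.73, 209 and 194.64 fasted (log2 0.60, SE 0.11, adjusted p = 0.00654). Dnajb9, a co-chaperone of BiP, rose by 0.77 (SE 0.14, edgeR adjusted p = 0.00715), and Ern1, the stress sensor IRE1, fell by 0.38 (SE 0.12, adjusted p = 0.0491). The machinery that feeds proteins into the reticulum moved the same way: 11 of 21 signal peptide and translocon genes rose and 0 fell (median 0.40). Its members of smallest p were the signal peptidase subunits Spcs3, at 36.7, 35.3 and 36.4 fed and 68.3, 62.1 and 60.7 fasted (log2 0.82, SE 0.10, edgeR adjusted p = 0.00187), and Spcs1 (log2 0.91, SE 0.11, adjusted p = 0.00201). Peptide processing genes were mixed, with 2 of 14 higher and 2 lower. The granule protein Scg2 (0.59) and the prohormone convertase Pcsk1 (0.54) rose, and the granule protein Chga (-0.36) and the release sensor Syt7 (-0.58) fell. With GC and length trends taken out 5 folding genes and 6 translocon genes were called, with 1 higher and 1 lower processing gene. Hspa5 and Spcs3 were still called in that fit. Hsp90b1, Dnajb9, Ern1 and Spcs1 were not (edgeR adjusted p = 0.0714, 0.0988, 0.35 and 0.115). Without fed library 3 the counts were 5 and 6, without fed library 2 they were 7 and 8, and without fasted library 3 they were 6 and 10.

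The endoplasmic reticulum stress element, CCAAT and CCACG with any 9 bases between them, was in 37 of the 32851 stretches (0.113%) and in 18 of the 11322 tested genes with a stretch (0.159%), both strands searched. Of 20 listed folding genes with a stretch 9 held it: Hspa5, Hsp90b1, Pdia6, Canx and Dnajc3 among the 10 that rose, and 4 that were not called. Hspa5 at chr2:34771840-34772089 (plus strand) and Hsp90b1 at chr10:86705445-86705694 (minus strand) are shown as chaperones that rose, with matches in capitals.
Hspa5: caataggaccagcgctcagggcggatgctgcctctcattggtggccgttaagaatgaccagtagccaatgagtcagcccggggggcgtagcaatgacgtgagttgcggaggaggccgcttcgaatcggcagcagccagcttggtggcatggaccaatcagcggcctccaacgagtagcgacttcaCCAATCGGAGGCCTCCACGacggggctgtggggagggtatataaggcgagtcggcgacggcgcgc
Hsp90b1: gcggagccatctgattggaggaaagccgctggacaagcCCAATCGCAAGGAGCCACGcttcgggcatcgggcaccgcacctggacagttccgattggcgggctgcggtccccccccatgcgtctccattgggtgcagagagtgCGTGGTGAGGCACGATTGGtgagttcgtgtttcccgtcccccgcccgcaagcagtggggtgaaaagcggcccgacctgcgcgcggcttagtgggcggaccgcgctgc
Hsp90b1 holds 2 matches and Hspa5 holds 1, which begins 65 bases before the start. The element is thus frequent on the list in genes that rose and in genes that were not called.

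Sst was the called peptide outside the satiety list with a cyclic AMP element, TGACGTCA, in its stretch, a motif found in 2.84% of tested genes and in 1.55% of all stretches. It is shown at chr16:23890845-23891094 on the minus strand, with the element, 48 bases before the start, in capitals.
Sst: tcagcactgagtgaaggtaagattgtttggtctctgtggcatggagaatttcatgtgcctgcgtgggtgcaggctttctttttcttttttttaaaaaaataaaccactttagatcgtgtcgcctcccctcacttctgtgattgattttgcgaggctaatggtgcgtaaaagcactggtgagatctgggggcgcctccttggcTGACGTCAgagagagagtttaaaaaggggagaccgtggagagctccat
On the satiety list the same letters were in 1 of 11 genes with a stretch, Cartpt, and on the hunger list in 0 of 5.

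RNA-binding proteins linked to cold and to splicing rose in 9 of 13 cases, with 0 lower and all 13 estimates above 0 (median 0.48). Rbm3, the cold-induced protein that protects synapses, was at 56.9, 40.7 and 46.0 fed and 111, 70.2 and 82.8 fasted (log2 0.88, SE 0.18, edgeR adjusted p = 0.011). Cirbp, its close relative, overlapped between groups and did not pass (log2 0.31, SE 0.16, adjusted p = 0.192). The splicing factors Srsf7 (0.70, SE 0.10, edgeR adjusted p = 0.00362) and Srsf3 (0.61, SE 0.12, adjusted p = 0.0106) rose. The count was 1 without fed library 3, 2 without fed library 2, 4 without fasted library 1, 5 without fasted library 3 and 2 with GC and length trends taken out, where Rbm3 kept a difference of 0.57 at an adjusted p of 0.061.

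Vessel genes fell. Of 22 endothelial genes 12 fell and 1 rose (median -0.79, or 0.578 times the fed level). Flt1, a receptor for vascular growth factor (chromosome 5, 147561604 to 147726011), was at 49.8, 46.2 and 64.2 fed and 15.0, 24.1 and 12.7 fasted (log2 -1.63, SE 0.23, edgeR adjusted p = 0.00293). Ptprb, the phosphatase that holds endothelial junctions, was at 34.1, 31.8 and 39.8 fed and 9.71, 16.4 and 10.4 fasted (log2 -1.53, SE 0.20, adjusted p = 0.00243). In both genes fasted library 2 was the highest of the fasted libraries and still below every fed one. Tek, the angiopoietin receptor, fell by 0.78 (SE 0.14, edgeR adjusted p = 0.00636), and Slco1a4, a transporter of the blood-brain barrier, by 0.91 (SE 0.16, adjusted p = 0.00668). The exception was Mfsd2a, the lipid transporter of the barrier, which rose from 10.7 ± 1.57 to 18.3 ± 3.31 scaled CPM (SD, n = 3; log2 0.78, edgeR adjusted p = 0.0155). Mfsd2a was not called without fasted library 1 or without fed library 2 or 3. The summed endothelial markers were 294 to 362 CPM fed and 147 to 235 CPM fasted (exact two-sided permutation p = 0.1, the smallest that 3 against 3 can give). This list held with GC and length trends taken out, with 11 lower and 1 higher. The count of lower genes was 6 without fed library 3, 7 without fasted library 1, 8 without fed library 1 or fasted library 3, and 16 without fasted library 2.

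Of 11 pericyte and smooth muscle genes 6 fell and 0 rose (median -0.71). Rgs5, which marks pericytes, was at 52.6, 46.0 and 49.7 fed and 22.2, 30.5 and 22.1 fasted (log2 -0.99, SE 0.14, edgeR adjusted p = 0.003), and Notch3, the receptor of mural cells, fell by 0.97 (SE 0.18, adjusted p = 0.00715). The basement membrane collagens Col4a1 and Col4a2, which vessels also make, were the 2 of 16 fibroblast and collagen genes that fell (-0.43 and -0.58), while 14 of the 16 estimates were above 0 (median 0.73). Without fasted library 2, which had the highest fibroblast sum, that median was -0.01. Neither collagen was called with GC and length trends taken out (-0.08 and -0.20), and Col4a1 was called in 0 of the 6 fits that leave out 1 library. The pericyte count was 2 with GC and length trends taken out, 2 without fed library 3, and 3 without fasted library 1. With both trends taken out Rgs5 was still called and Notch3 was not (log2 -0.57, edgeR adjusted p = 0.0711). Of 8 red cell genes tested, 5 fell and 1 rose, and 5 fell and 0 rose with GC and length trends taken out. Their sum overlapped between the groups, at 202 to 275 CPM fed and 219 to 272 CPM fasted (exact two-sided permutation p = 0.6). Hbb-bs, a beta globin, was at 6.26, 2.91 and 15.9 fed and 1.68, 1.99 and 0.681 fasted (log2 -2.53, SE 0.61, edgeR adjusted p = 0.0201), and Slc4a1, the anion exchanger of red cells, at 1.39, 2.16 and 2.81 fed and 0.0699, 0.361 and 0.248 fasted (log2 -3.15, SE 0.53, adjusted p = 0.00565). The fed libraries varied widely in globin, and the count of lower genes was 1 without fed library 3 or without fasted library 1 or 3, and 3 without fed library 1. The alpha globins Hba-a1 and Hba-a2 are near-identical copies, so their separate values are uncertain. How much blood each sample held was not tested.

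**Figure D4:**
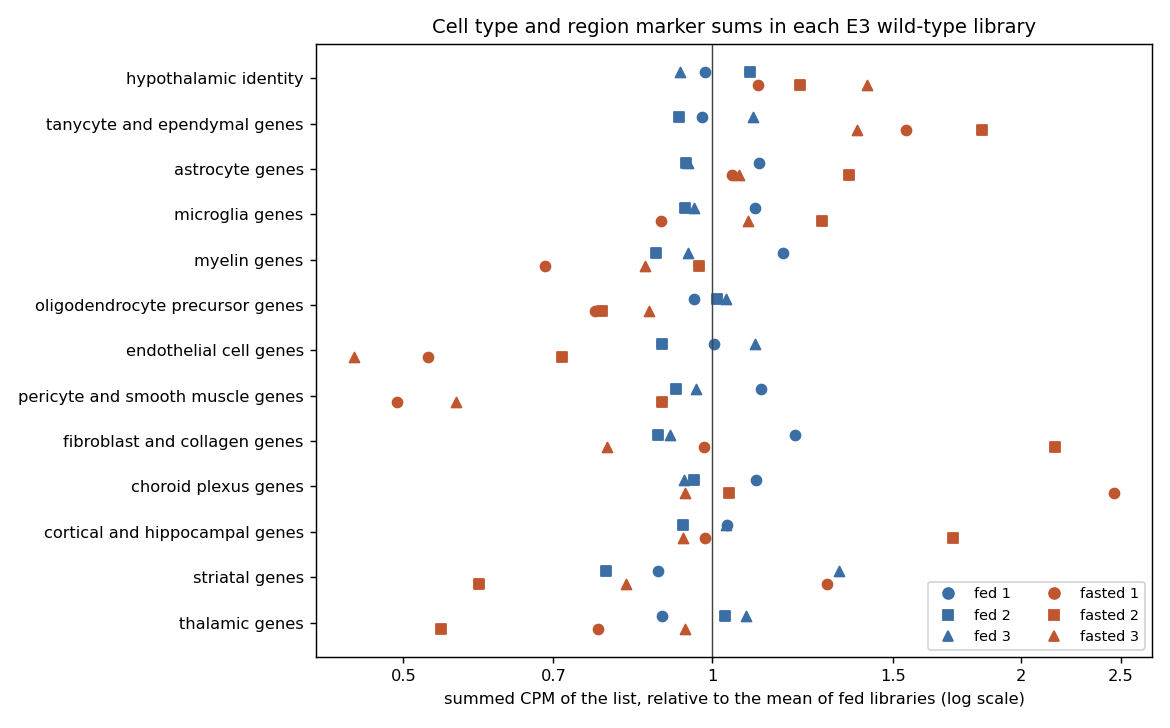
Summed CPM of 13 marker lists in each library, relative to the mean of the 3 fed libraries. Endothelial sums lie below and tanycyte and ependymal sums above the fed libraries in all 3 fasted libraries, fasted library 2 stands apart in cortical, fibroblast and thalamic sums, and fasted library 1 in the choroid plexus sum. The choroid plexus sum includes Ttr.

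Glial lists went in different directions. Of 20 myelin genes 8 fell and 1 rose (median -0.33). Mag, a myelin adhesion protein, was at 152, 105 and 105 fed and 48.5, 68.2 and 70.7 fasted (log2 -0.95, SE 0.18, edgeR adjusted p = 0.00891). Fa2h, the enzyme that hydroxylates myelin lipids, was at 67.4, 60.2 and 70.8 fed and 33.3, 37.7 and 34.3 fasted (log2 -0.91, SE 0.11, adjusted p = 0.00184). Mbp and Mog, proteins of the myelin sheath picked from the list for this role, were not called, and the summed myelin markers overlapped between groups (5393 to 7170.0 CPM fed, 4200.0 to 5941 fasted). In the precursor lineage 5 of 16 genes fell and 0 rose, among them the transcription factor Sox10 (log2 -0.69, SE 0.14, edgeR adjusted p = 0.0113) and Bcas1, a mark of newly formed oligodendrocytes (-0.53, SE 0.14, adjusted p = 0.026). The precursor count was 2 without fed library 2 or 3 or fasted library 1, and 3 without fed library 1, and it was 4 lower and 1 higher with both trends taken out. In the fit with GC and length trends taken out 5 myelin genes fell. Without any 1 of fed libraries 1 and 3 or fasted library 1 the myelin count was 3, and without fed library 2 it was 4.

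Cells that line the third ventricle showed the opposite sign. Of 20 tanycyte and ependymal genes 6 rose and 0 fell (median 0.64), and their sum was 248 to 292 CPM fed and 370 to 489 CPM fasted (exact two-sided permutation p = 0.1, the smallest possible). Ropn1l, a protein of motile cilia, was at 13.4, 11.4 and 11.9 fed and 29.6, 25.2 and 32.8 fasted (log2 1.25, SE 0.13, edgeR adjusted p = 0.00162). Fabp7, a fatty acid carrier of radial glia and tanycytes, was at 10.6, 7.44 and 7.70 fed and 18.6, 14.7 and 16.7 fasted (log2 0.96, SE 0.18, adjusted p = 0.00748). Among 20 astrocyte genes 6 rose and 0 fell, including the glutamate transporter Slc1a3 (log2 0.50, SE 0.11, edgeR adjusted p = 0.0121), the lipid carrier Apoe (0.49, SE 0.12, adjusted p = 0.0211) and the gap junction proteins Gja1 (0.46) and Gjb6 (0.75). Of 16 microglia genes 2 were higher, near the 11.5% of all genes, and 0 were called without fed library 3 or with both trends taken out. With GC and length trends taken out Fabp7 was not called (log2 0.28, edgeR adjusted p = 0.271), and 3 ventricular and 5 astrocyte genes were. Without fed library 3 those counts were 3 and 1, without fed library 2 they were 4 and 1, without fasted library 1 they were 4 and 4, and without fasted library 3 they were 6 and 2.

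Of 38 glutamate and GABA receptor genes 6 rose and 7 fell. Gria2, an AMPA receptor subunit, rose from 555 ± 33.6 to 904 ± 183 scaled CPM (SD, n = 3; log2 0.70, edgeR adjusted p = 0.014). Grin2d, an NMDA receptor subunit, fell from 40.2 ± 5.62 to 20.5 ± 4.32 (SD, n = 3; log2 -0.97, edgeR adjusted p = 0.0055). Of 36 potassium channel genes 8 fell and 0 rose (median -0.21). Kcnc1, the fast channel Kv3.1, was at 264, 228 and 223.20 fed and 115, 137 and 141 fasted (log2 -0.86, SE 0.12, edgeR adjusted p = 0.00293). Both lists lost most calls with GC and length trends taken out, to 0 higher and 1 lower receptor and 1 lower channel. Without fed library 3, 0 receptors rose and 2 fell and 3 channels fell, without fed library 2 these counts were 1, 3 and 4, and without fasted library 1 they were 2, 3 and 4. Without fasted library 3 they were 3, 5 and 5. Immediate early genes, which mark recent firing, were called in 4 of 21 cases, near the 19.9% of all genes. Fos, Npas4 and Btg2 fell (log2 -0.76, -0.85 and -0.72) and Egr3 rose (1.26). Leaving out 1 library moved the number that fell between 0 and 7, the 7 being without fasted library 2, and Egr3 was called in 1 of the 6 such fits. After both trends were taken out 2 were lower and 0 higher. In the clock 1 of 17 genes was called, Clock (0.37, SE 0.09, edgeR adjusted p = 0.0227). That call was present in 1 of the 6 fits that leave out 1 library and was absent with both trends taken out (adjusted p = 0.0849), where 1 other clock gene was lower.

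Some of the genes of largest fold change varied widely among the fasted libraries. Ttr, the thyroid hormone carrier that choroid plexus makes in bulk, was at 4.2, 1.02 and 4.06 fed and 387, 15.9 and 23.7 fasted (log2 5.50, SE 1.25, edgeR adjusted p = 0.0156). It was by far highest in fasted library 1, as were the choroid plexus markers Folr1 (1.47 scaled CPM against at most 0.248) and Cldn2 (1.68 against at most 0.542), chosen after their values were seen. That library also had the highest choroid plexus sum, but Ttr is on that list and supplies a large part of the sum. Kcnj13, another marker, is listed at 0 in all 6, but so are Rpl13 and B2m, which every cell uses, so that 0 can be a failed count. Trim30a, a regulator of innate immune signalling, was at 6.11, 5.61 and 7.12 fed and 35.2, 6.92 and 331 fasted, so its groups overlapped although it was called (log2 4.31, SE 1.13, adjusted p = 0.0275). Fezf2, a transcription factor of deep cortical neurons, was at 2.87, 14.1 and 2.85 in the fasted libraries, highest in the library with the most cortical markers. Lef1, a transcription factor of thalamic neurons, fell from 72.9, 85.4 and 89.0 fed to 27.1, 11.6 and 37.7 fasted (log2 -1.70, SE 0.33, edgeR adjusted p = 0.00849) and was lowest in the library with the fewest thalamic markers. The part of neighbouring tissue in these genes was not tested. Lef1 was called in all 6 fits that leave out 1 library. Ttr and Fezf2 were not called without any 1 fed library, and Trim30a was not called without any 1 fed library or without fasted library 3. Met, the receptor for hepatocyte growth factor, was at 3.82, 3.56 and 4.21 fed and 25.2, 11.5 and 12.8 fasted (log2 2.09, SE 0.30, adjusted p = 0.00302). Bfsp2, a filament protein known from the eye lens, fell from 3.44, 2.91 and 4.47 fed to 0.349, 0.782 and 0.248 fasted (log2 -2.94, SE 0.43, edgeR adjusted p = 0.00328). Gpm6a, an abundant neuronal membrane protein that shapes filopodia, had little spread within groups, at 660.2, 671 and 639 fed and 1279.5, 1269 and 1276 fasted (log2 0.96, SE 0.11, adjusted p = 0.00184).

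Fto, the RNA demethylase after which the deposited tables are named, was called lower (chromosome 8, 91313525 to 91668439). It was at 291, 312 and 326 fed and 244, 255 and 240.1 fasted, without overlap, a log2 difference of -0.33 (SE 0.10, edgeR quasi-likelihood with Benjamini-Hochberg adjusted p = 0.0448). Its call was present in 2 of the 6 fits that leave out 1 library, and was absent with GC and length trends taken out (log2 -0.26, adjusted p = 0.093). Of 10 genes in the list around Fto, itself included, Aktip, a regulator of membrane traffic, was the other 1 called (log2 0.43, SE 0.11, edgeR adjusted p = 0.0227). These 2 calls among 10 genes were near the 19.9% of all genes.

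The same question was put to the E1 wild types, whose fed and fasted libraries also share a batch number. By the same test 342 of 14877 genes were higher (2.3%) and 2.97% were lower, 784 in all (5.27%). That count ranged from 98 without fasted library 1 of E1 and 114 without its fasted library 2 to 2566 without its fasted library 3, and was at most 435 without any 1 fed library. Of 14368 genes tested in both lines, 131 were called in both, 4.55% of the E3 calls and 17.4% of the E1 calls: 34 higher in both, 71 lower in both and 26 in opposite directions. The difference between the lines was tested gene by gene, and 1992 of 15159 genes (13.1%) passed, 6.15% higher and 6.99% lower in E3 than in E1. The count was 1153, 1189 and 1210 without E1 fed libraries 1 and 4 and E1 fasted library 2, and 1237 and 1229 without E3 fed libraries 2 and 3. Batch and, by the Y-linked gene Ddx3y (69.8 to 136 CPM in the 12 E3 libraries, at most 0.0643 in the E1 wild types), sex coincide with the line, so these cannot be told apart.

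For Npy the difference between the lines did not pass the test. It rose in both, by 1.5 in E3 and 1.75 in E1 (edgeR adjusted p = 0.00526 in E1), a difference of -0.29 (SE 0.32, adjusted p = 0.58). Pmch and Cartpt did differ. Pmch was at -0.23 in E1 (not called), a difference of 1.87 (SE 0.30, edgeR adjusted p = 0.00371), and Cartpt fell in E1 (-0.58, adjusted p = 0.016) where it rose in E3, a difference of 1.53 (SE 0.29, adjusted p = 0.00694). Pomc fell in E1 (-1.28, edgeR adjusted p = 0.00563), but its difference between the lines did not pass (0.81, SE 0.29, adjusted p = 0.0779). Glucocorticoid targets were called at the same count in both lines, 14 of 23 higher in E3 and 14 higher in E1, with medians of 0.62 and 0.63. Of the 23, 4 differed between the lines, Mt1 with the higher value in E3 (difference 0.79, edgeR adjusted p = 0.00438) and 3 with the lower. Ribosomal proteins rose in 6 genes of E1 against 66 of E3, and 32 differed. The respiratory chain rose in 0 against 46, and 33 differed. Heat shock chaperones (11 higher in E3 than in E1), folding genes (10 higher), tanycyte and ependymal genes (6 higher), endothelial genes (11 lower) and potassium channels (10 lower) also differed. Fabp7, among the 5 genes of smallest p in that direction, was at -1.5 in E1 (difference 2.42, SE 0.27, edgeR adjusted p = 0.00124). With GC and length trends taken out of every library the count of genes that differed was 814.

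In E3 knockouts 72 of 14663 genes were higher (0.491%) and 2 lower (0.0136%), 74 in all (0.505%). An unadjusted p under 0.05 was found for 1918 genes, against 5073 in the wild types. Without fed knockout 1 or 2 the count was 0, without fasted knockout 2 it was 4, without fed knockout 3 it was 9, and without fasted knockout 1 it was 25. Of the 74 calls, 45 were also called in wild types (60.8% of the knockout calls, 1.56% of the wild-type ones), 43 higher and 2 lower in both. Glucocorticoid targets rose in 13 genes with a median of 1.21. Fkbp5 rose by 1.23 (edgeR adjusted p = 0.0144), Sgk1 by 1.28 (0.0269) and Cdkn1a by 2.45 (0.0157), and the differences from the wild types did not pass (adjusted p 0.281, 0.17 and 0.535). Of 24 targets tested for that difference 2 passed, both lower in the wild types, with a median difference of -0.53. Npy was at 0.67 in the knockouts (adjusted p = 0.13), and its difference from the wild types of 0.80 (SE 0.29) did not pass either (edgeR adjusted p = 0.141). Across all genes, 202 of 15033 (1.34%) differed between the genotypes, 0.858% higher and 0.486% lower in wild types than in knockouts. Gpm6a was at -0.01 in knockouts, a difference of 0.95 (SE 0.13, adjusted p = 0.0255), and the peptidase subunit Spcs3 at -0.10, a difference of 0.89 (SE 0.12, edgeR adjusted p = 0.0255). With the GC trend taken out of each library, 0 genes differed between the genotypes, and with both trends 1 did. Without fasted wild type 2 the count was 697 and without fasted knockout 3 it was 29. It was 0 without any 1 of fasted wild types 1 and 3, fed wild types 2 and 3, fasted knockout 2 and the 3 fed knockouts.

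A total of 15 genes were called in all 3 comparisons. All but 1 were higher in all 3, and those named here were chosen after their values were seen. They included the glucocorticoid targets Cdkn1a, Sgk1, Fkbp5, Ddit4, Arrdc2, Nfkbia and Hif3a, the lipase inhibitor Angptl4, the astrocyte gene Agt and the ribosomal proteins Rpl10a and Rps14. Cfap299, a gene of cilia and flagella by its name, was called lower in E1 (-0.90) and higher in E3 wild types (1.09) and knockouts (1.55).

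**Figure D5:**
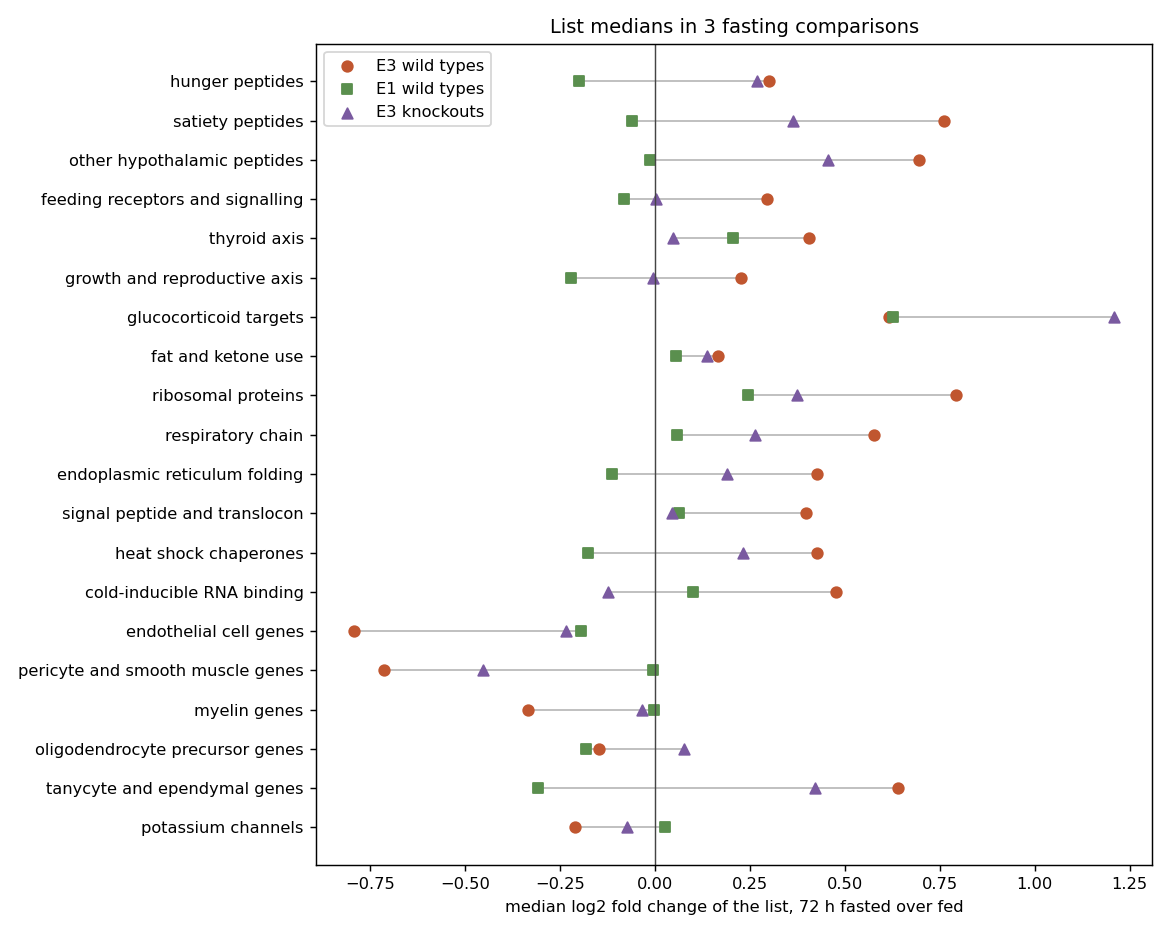
Median log2 difference, fasted over fed, of 20 gene lists in E3 wild types, E1 wild types and E3 knockouts. Glucocorticoid targets lie at 0.62, 0.63 and 1.21, while ribosomal proteins lie at 0.79, 0.24 and 0.38 and endothelial genes at -0.79, -0.19 and -0.23.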

How the data were processed

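Total RNA of whole hypothalamus was sequenced. The authors deposited whole-number counts per Ensembl gene in 1 table for each element and feeding state. Per the submitters' processing notes HISAT2, Bowtie2, edgeR and the mm10 genome were used. Versions, the counting tool and the strand are not given in the sources used here, so a gene and its antisense partner cannot be told apart. In the E3 tables ctrl and 3CR columns were taken for fed and fasted libraries, after the names of their tables. No column was left without a sample (0), and mitochondrial genes are listed at 0.

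Counts were tested with edgeR 4.0.16 in R 4.3.3 (TMM, quasi-likelihood F test, filterByExpr at its settings min.count 10 and min.total.count 15), without covariates. Calls were made at 0.05 after Benjamini-Hochberg adjustment over every gene tested. SE is the log2 difference divided by the root of F. Differences between lines or genotypes were contrasts in fits over 13 and 12 libraries. The fit was tested on simulated data with 200 changed genes: 20 of 100 at 1.5-fold and 69 of 100 at 2-fold were recovered among 14409 genes, with 9 false calls. The simulated libraries held no trend on GC content or length, so that false count does not cover calls that move with such trends. GC content and length are of the longest GENCODE vM21 transcript, and trends were lowess fits (span 0.3) entered as offsets. Promoter letters come from RefSeq (GRCm38.p6). Alternatives were RLE normalization, DESeq2 1.42.0, the likelihood ratio test, no filter, trends taken out, a replicate block, all 12 E3 libraries in one model, and each library left out.

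The comparison, its 46 gene lists and the rule for named genes were chosen with earlier results of these data known. Genes were named, predicted models aside, if they were among the 12 of largest fold per direction whose mean log2 CPM was 1 or more, among up to 4 called members per list and direction by p, on a short list of feeding, stress and chaperone genes whether called or not, or among the 5 of smallest p per direction of a difference test. Depth of 14911351 to 19881350 counts per library left genes of low count untested. Marker lists for anterior pituitary, fat, liver and skeletal muscle had 1, 1, 0 and 5 genes tested and 0 called. Some genes that the rule names are not reported here.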

Additional observations from a re-analysis of the deposited data

Results flagged for a closer look

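The response to fasting in E3 wild types differed from that in E1 wild types, by a test of the difference itself, in 1992 genes. Values here are log2 differences between the responses from edgeR's quasi-likelihood test with Benjamini-Hochberg adjustment. A value above 0 means a higher log2 difference in the first group named, whatever the sign in each group. Among peptides the difference was 1.87 for Pmch, 1.53 for Cartpt, which rose in E3 and fell in E1, 1.18 for Ghrh and 0.90 for Sst (adjusted p = 0.00371, 0.00694, 0.0394 and 0.00877). Among chaperones the difference was 0.84 for Hspa5 and 0.64 for Hspa8 (adjusted p = 0.0161 and 0.0444), and for Gpm6a it was 0.73 (0.00773). The genes of smallest p in that direction were Fabp7 (2.42), the cytochrome oxidase subunit Cox6c (1.59), the dynein light chains Dynll1 (1.42) and Dynlrb1 (1.11) and the mitochondrial import protein Timm8b (1.24). In the other direction they were Pstpip2 (-1.25), the sulfotransferase Ndst2 (-1.14), Clasrp (-1.05), the histone methyltransferase Kmt2b (-1.02) and the kinesin-like Stard9 (-1.01). Adjusted p was 0.00124 to 0.00146 for these 10 genes. Batch and sex coincide with the line, and cannot be told apart from it.

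The response differed between E3 wild types and E3 knockouts in 202 genes. The difference was above 0 for Ropn1l (1.21), the zinc finger gene Zfp40 (1.13, from 0.67 in wild types and -0.48 in knockouts), Gpm6a (0.95), Spcs3 (0.89) and the transcription cofactor Sub1 (0.81). The difference was below 0 for the collagen Col26a1 (-1.18), Spsb1 (-1.13), Nkain1 (-1.13), the lipid flippase Atp11a (-0.83) and the ephrin receptor Epha10 (-0.82), with edgeR adjusted p of 0.0255 to 0.0357 over the 10 genes. With the GC trend of each library taken out 0 genes differed.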

How the results depend on the processing

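Of 2891 genes called in E3 wild types, the count was 1046 with GC and length trends taken out, and 902 (without fed library 3) to 3764 (without fasted library 2) with 1 library left out. RLE, DESeq2, the likelihood ratio test, no filter, either trend alone and all 12 E3 libraries in one model gave 2015 to 3496. No named gene that was called changed direction (0 of 174). With both trends taken out 111 of the 174 stayed past the threshold, with GC alone 132, and without fed library 3, 88. Estimates that changed sign were Hcrt, at -0.257 with the length trend and -0.1358 with both trends taken out, and Oxt, at -0.2939, -0.1515, and from -0.1908 (without fasted library 3) to 0.493 (without fasted library 1) with 1 library left out. Neither was called.

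Same-numbered fed and fasted libraries did not deviate together (correlations -0.289, -0.202 and 0.0503), so the numbers were not taken as pairs. The replicate block gave 1633 calls in wild types and 906 with the GC trend out, 19 and 3 in knockouts, and 0 and 0 for the difference between genotypes.

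In E1 wild types (784) DESeq2 gave 1418, the likelihood ratio test 1343, the GC trend out 1180 and both trends out 1204, and leaving out 1 library 98 to 2566. In knockouts (74) DESeq2 gave 391, the likelihood ratio test 396, no filter 115, GC out 44, length out 17, both out 33, all 12 libraries 117, and leaving out 1 library 0 to 92. The difference between lines (1992) was 814 with both trends out and 1153 to 2833 with 1 library left out. The difference between genotypes (202) was 1095 by DESeq2, 756 by the likelihood ratio test, 313 with length out, 0 with GC out, 1 with both out, and 0 to 697 with 1 library left out. The causes were not tested.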

Other observations

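Other gene families were counted after their values had been seen, so their counts are descriptions only. Among all genes tested 11.5% were higher and 8.43% lower, 19.9% in all. Proteasome subunits resembled the ribosomal proteins in direction: of 37 tested, 20 were higher and 0 lower (median log2 0.38), against 5 higher with GC and length trends taken out. Mitochondrial ribosomal proteins had 19 of 72 higher and 0 lower (median 0.36), with 6 higher and 1 lower after the trends were taken out. Histone genes with Hist symbols had 11 of 43 higher and 0 lower (median 0.64), against 3 higher and 0 lower with a median of 0.20 after the trends were taken out, and their median was -0.53 in E1 wild types. Zinc finger genes with Zfp symbols, whose median GC content was 43.7%, had 79 of 345 higher and 17 lower, and 17 higher and 5 lower with the trends taken out. Predicted genes with Gm symbols had 46 of 304 higher and 14 lower, in all a share near that of all genes. These counts turned to 19 higher and 31 lower with the trends taken out.

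Axonemal dyneins and Cfap genes, which build motile cilia, had 8 of 44 higher and 2 lower (median 0.41), in all near the 19.9% of all genes. With the trends taken out 8 of these cilia genes were higher and 0 lower. Their median was -0.24 in E1 wild types and 0.53 in E3 knockouts. Families with median transcripts of 5578 to 6029 bases were on the other side. Voltage-gated calcium channel subunits had 6 of 24 lower and 0 higher (median -0.39), semaphorins and plexins 10 of 29 lower and 2 higher (median -0.34), and kinesins 5 of 34 lower and 0 higher. With the trends taken out the lower counts were 3, 3 and 2. Kinesins were called in either direction in a smaller share than all genes.

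The E-box CACGTG, searched in the 250 bases before each RefSeq start, was in 5 of 54 ribosomal protein genes and 5 of 61 respiratory chain genes with a stretch, beside 9.33% of all tested genes.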
